A study of Canis lupus familiaris with 6 samples.

Results

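Glycolysis splits glucose into pyruvate, and most cells turn part of that pyruvate into lactate or pass it to the mitochondria. A set of 38 genes of this pathway and of glycogen metabolism was followed in dog adipose-derived stem cells, precursor cells from dog fat that can form adipocytes. The genes were chosen by name as glucose and lactate transporters, glycolytic enzymes, regulators of pyruvate use and enzymes of glycogen. Of the 38 names, 36 were matched in the deposited table of 23299 genes, and all 36 had a mean log2(TPM + 1) of at least 1. PDK1 and PDHB were not analysed here.

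In fat cells, glycolysis provides energy and also the glycerol 3-phosphate and acetyl-CoA from which triglycerides are built, so it is tied to fat storage. Flux is set mainly where glucose enters the cell and at hexokinase, phosphofructokinase and pyruvate kinase. Many of the enzyme genes are known targets of the oxygen-sensing factor HIF-1 and of insulin. Glycogen is a branched glucose polymer that fat cells hold in small amounts as a short-term store.

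All cells were seeded, grown for 2 days and then held for 14 days in an adipogenic medium of 10 µg/mL insulin, the glucocorticoid dexamethasone at 1 µM and rosiglitazone, a drug that activates PPARG, at 200 nM. The control group received the solvent DMSO (n = 3 libraries), and the other group received 1 µM bisphenol A (BPA), a plastics monomer that can bind oestrogen receptors (n = 3). The series asks how BPA bears on obesity in dogs. The labels do not say whether the replicates are separate cultures or animals, so p-values measure only the spread between these libraries, which may be technical. Values are TPM, a length-adjusted share of each library's transcripts scaled to a total of 1000000. The read depth behind them is unknown. Triplets of values are in the order of replicates 1, 2 and 3, and where 2 ranges or triplets stand together the control group comes first. Log2 differences are BPA minus control on the log2(TPM + 1) scale, which understates changes of low genes.

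Between 12159 and 12584 genes reached 1 TPM in a library. A first principal component, computed over the tested genes other than the 36, took 79.8% of the variance between libraries. It placed BPA replicate 3 at 61.1, control replicate 2 at 11.3, and the other libraries between -29.8 and -0.093. BPA replicate 3 thus stood apart, and the results below are given with and without it where that matters. Adipocyte markers ADIPOQ (control 7.99 to 14.7, BPA 26.2 to 40.4 TPM), PLIN1, FABP4 and CIDEC lay higher in all 3 BPA libraries. The summed level of the 5 adipocyte markers overlapped (438 to 556 and 496 to 747 TPM). Most of that sum was the fifth marker, LPL, which overlapped (396 to 493 and 408 to 576 TPM). Of 7 stromal markers 6 were matched. Their sum ran from 6570.2 to 13100.4 TPM in control and 6541 to 30016 TPM with BPA, the highest in BPA replicate 3. Most of it was COL1A1 (2170 to 8114 and 2398 to 24502 TPM) and VIM (4211 to 4814 and 4013 to 5171 TPM). PDGFRA lay higher in all BPA libraries (69.0 to 83.9 and 95.4 to 128 TPM). PDGFRB (28.9 to 84.4 and 32.5 to 206 TPM) and ENG (1.48 to 3.70 and 1.42 to 9.59 TPM) overlapped, both highest in BPA replicate 3. NT5E, one defining marker of such cells, was near 0 (0.151 to 0.222 and 0.104 to 0.217 TPM). The 4 endothelial markers summed to at most 0.668 TPM and the 4 leukocyte markers to 28.0 to 39.2 TPM in control and 30.7 to 51.8 TPM with BPA. Most of the leukocyte sum was CD14 (20.2 to 29.7 and 25.6 to 41.5 TPM), while PTPRC, which defines leukocytes, was at or near 0, at most 0.00656 TPM. In such bulk samples, fewer cells of a type and less RNA per cell cannot be told apart. The part of cell composition in the results below was not tested.

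In the deposited values the summed message for the chain from hexokinase to lactate dehydrogenase was lower with BPA, by a like amount in each library. The single genes did not all follow the sum. The 18 enzyme genes of that chain summed to 10721, 10544 and 10815 TPM in the control libraries and to 9165, 9224 and 9112 TPM in the BPA libraries. The means were 10693 ± 137 and 9167 ± 56.5 TPM (SD, n = 3), or 1.07% and 0.917% of all transcripts. The BPA libraries were thus 14.3% lower on average. All BPA libraries lay below all control libraries, and within each group these TPM sums were close to each other, including BPA replicate 3. The genes behind the sum differed there. LDHA and PGAM1 were lower in BPA replicate 3 (1204 and 1507 TPM) than in BPA replicate 1 (1872 and 1966 TPM). ALDOA and GAPDH were higher (1814 and 1179 against 1316 and 845 TPM). Because the sum is a score over chosen members, no p-value is given for it. It lay lower with BPA, and without overlap, under the 4 other scalings tried. Leaving out a library cannot make groups that are apart overlap, so only the size is given for it, 13.8% to 14.9% lower. The size moved with scaling, from 9.23% under quantile normalization to 19.1% under median centring. The evenness moved too. Under median centring the sums ran from 10210.5 to 11567 in control and 8129 to 9546 with BPA. Under quantile normalization they ran from 10366 to 10435 and 9109 to 9897.

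**Figure D1:**
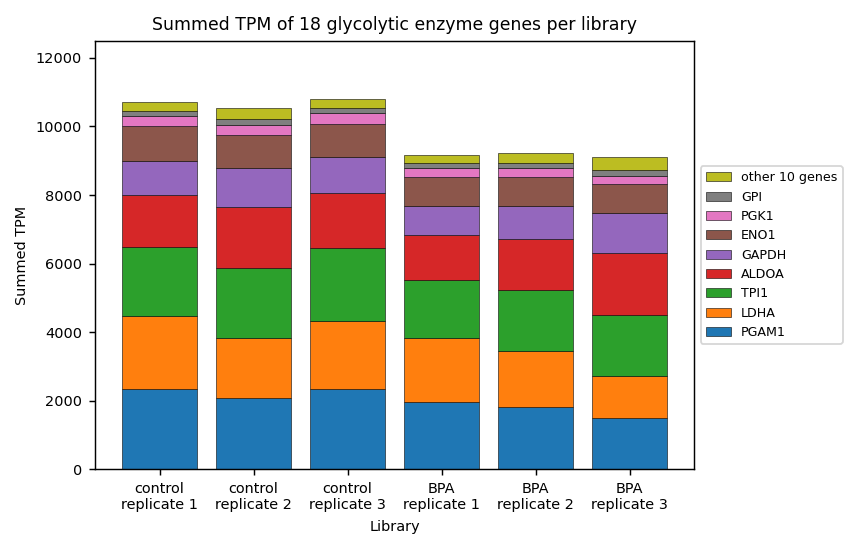
Summed TPM (vertical axis, linear, from 0) of the 18 glycolytic enzyme genes in each of the 6 libraries, stacked by gene, with the 10 least abundant genes drawn as one block. The 3 control bars end between 10544 and 10815 TPM and the 3 BPA bars between 9112 and 9224 TPM.

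A few abundant enzymes made up most of that difference. PGAM1 accounted for 32.8% of it, LDHA for 24.4%, TPI1 for 21.2% and ENO1 for 9.57%. ALDOA and GAPDH added 5.86% and 3.56%. The shares rested partly on BPA replicate 3. Without it PGAM1 made up 24.9%, TPI1 22.9%, ALDOA 15.0%, LDHA 12.6%, GAPDH 9.79% and ENO1 9.41%. Abundant genes in general leaned the same way: of 332 tested genes with a mean of 500 TPM or more, 235 lay lower with BPA, with a median log2 difference of -0.12, while the 6 abundant enzymes all lay lower, with a median of -0.24. Of the 6, PGAM1, TPI1 and ENO1 did not overlap between groups, against 8.13% of the 332 that were lower without overlap. The 326 abundant genes outside the chain summed to 594385 ± 10437 TPM in control and 579327 ± 21804 TPM with BPA, a difference of 2.53% that overlapped between groups. That difference rested mostly on BPA replicate 3, at 555011 TPM. BPA replicates 1 and 2, at 597135 and 585837 TPM, lay inside the control range of 582538 to 602222 TPM.

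No single gene passed the test. By limma with Benjamini-Hochberg adjustment over 12277 tested genes, 0% were called at 0.05, and the same held for the 36 members (0 called, smallest adjusted p = 0.901). At an unadjusted p under 0.05, 4 members lay lower and 0 higher, that is 11.1% lower where 1.7% of all tested genes were lower and 1.87% higher (3.58% in either direction). The BPA and control libraries did not overlap for 6 members that were lower (16.7%, against 3.98% of all tested genes) and for 3 that were higher (against 5.38%, or 9.37% in either direction). The median log2 difference over the 36 members was 0.0074, beside 0.031 for all tested genes, with 17 members below control and 19 above. Centring each library on its median changed that split to 26 below and 10 above, and quantile normalization to 23 and 13. Without BPA replicate 3 the split was 22 below and 14 above, with a median of -0.14. Without BPA replicate 3, 10 members were lower and 6 higher with no overlap, where 6.56% and 14.7% of all tested genes were. Without BPA replicate 1 it was 10 and 5, against 14.3% and 14.7%, and without control replicate 2 it was 7 and 5, against 8.9% and 13.2%. The count of 4 lower at an unadjusted p under 0.05 was 0 without control replicate 1, control replicate 3 or BPA replicate 2. Of all tested genes 0.731%, 0.805% and 1.3% were then lower at that p. The count was 1 without control replicate 2 (against 1.19%), 3 without BPA replicate 1 (against 3.4%) and 6 without BPA replicate 3 (against 2.26%).

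**Figure D2:**
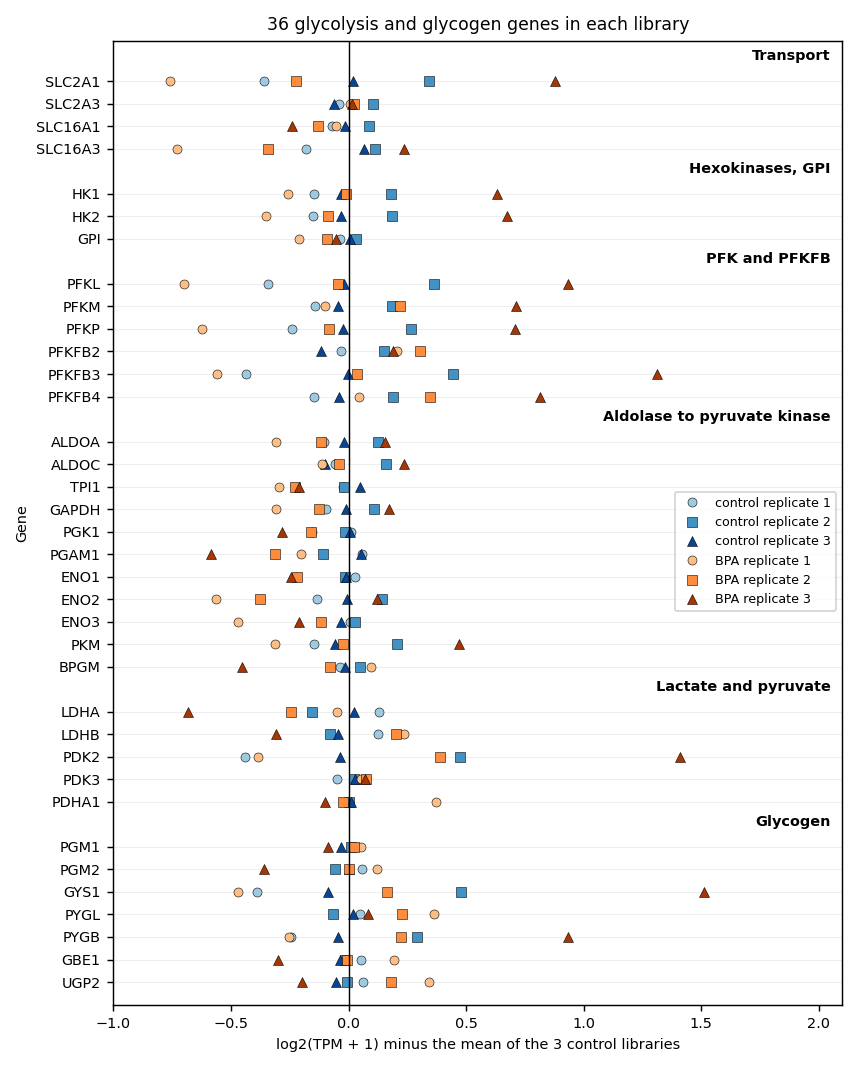
Each row is a gene and each point a library, placed by its log2(TPM + 1) minus the mean of the 3 control libraries (horizontal axis), with control in blue and BPA in orange. The points of TPI1, PGK1, PGAM1 and ENO1 separate by group, while BPA replicate 3 lies far to the right for genes such as GYS1, PDK2 and PFKFB3.

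The steps from aldolase to pyruvate kinase held 5 of the 6 members that were lower without overlap, the other being GPI. Of the 11 genes of this stretch, 9 lay below control and 5 did not overlap (45.5%), against 3.98% of all tested genes. The stretch is rich in abundant genes (ALDOA, TPI1, GAPDH, PGAM1 and ENO1). Of all tested genes at 500 TPM or more, 8.13% were lower without overlap. The median log2 difference was -0.20. Under median centring 11 lay below with 7 apart, against 4.14% of all tested genes, and under quantile normalization 10 with 4 apart, against 3.94%. Without BPA replicate 3, 10 lay below with 8 apart, against 6.56%, and without BPA replicate 1, 7 lay below and 4 above with 6 apart, against 14.3%.

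Triosephosphate isomerase (TPI1), which interconverts the triose phosphates, was one of the abundant enzymes. Its level was 2030.4, 2037 and 2134 TPM in control and 1682, 1767 and 1784 TPM with BPA. Every BPA library was below every control library, the gap being wider than the spread inside either group, with a log2 difference of -0.25 (SE 0.080, 95% interval -0.44 to -0.049) and an unadjusted limma p of 0.0226. Enolase 1 (ENO1), which forms phosphoenolpyruvate, stood at 1012, 985 and 985 TPM in control and 852, 854 and 837 TPM with BPA. Both groups were tight, at 994 ± 15.9 TPM and 848 ± 8.85 TPM (SD, n = 3), and the log2 difference was -0.23 (SE 0.073, 95% interval -0.41 to -0.050), with an unadjusted limma p of 0.0207.

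Phosphoglycerate kinase 1 (PGK1), the first step of the pathway that makes ATP, measured 298, 292 and 297 TPM in control and 265, 264 and 243 TPM with BPA. The control libraries were nearly equal and all BPA libraries lower, with BPA replicate 3 the lowest. The log2 difference was -0.20 (SE 0.078, 95% interval -0.39 to -0.0077), with an unadjusted limma p of 0.0438. Phosphoglycerate mutase 1 (PGAM1), the next enzyme, had the highest mean level of the 36 genes. It reached 2351, 2096 and 2349 TPM in control and 1966, 1818 and 1507 TPM with BPA. The groups did not overlap, but both spread widely, with control replicate 2 and BPA replicate 3 the lowest of their groups. The log2 difference was -0.37 (SE 0.13, 95% interval -0.68 to -0.051), with an unadjusted limma p of 0.0296. These 4 genes were the members with an unadjusted p under 0.05, and each had an adjusted p of 0.901 by limma. Limma's array weights were 1.33, 0.631 and 3.96 for the control libraries and 0.371, 7.07 and 0.115 for the BPA libraries. The weighted fit thus rested mostly on control replicate 3 and BPA replicate 2, and it called 881 of all tested genes. With these weights the limma adjusted p was 0.0245 for TPI1, 0.0248 for ENO1, 0.0410 for PGK1 and 0.0214 for PGAM1. Under quantile normalization the log2 difference was -0.15 for TPI1 and -0.24 for PGAM1. Over all alternatives the adjusted p of the 4 ran from those values to 0.9999.

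The minor enolases leaned the same way at much lower levels. Enolase 3 (ENO3), the form typical of muscle, stood at 14.4, 14.6 and 14.0 TPM in control and 10.1, 13.2 and 12.3 TPM with BPA. The groups did not overlap, with BPA replicate 1 the lowest, with a log2 difference of -0.26 (SE 0.12, 95% interval -0.56 to 0.026). The ENO3 difference was -0.16 without BPA replicate 1 and -0.12 with array weights. The skeletal muscle markers matched, 3 of 5 listed, summed to 1.69 to 2.38 TPM in control and 2.01 to 2.19 TPM with BPA. Enolase 2 (ENO2), typical of neurons, overlapped at 20.2, 24.7 and 22.2 TPM in control and 14.7, 17.0 and 24.4 TPM with BPA, BPA replicate 3 being just below the highest control library. Together the 3 enolases gave 1047, 1024 and 1021 TPM in control and 877, 884 and 874 TPM with BPA. The summed enolase message was thus even within each group, at 1030.5 ± 14.1 and 878 ± 4.89 TPM (SD, n = 3), and ENO1 made up from 95.8% to 97.2% of it in every library.

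**Figure D3:**
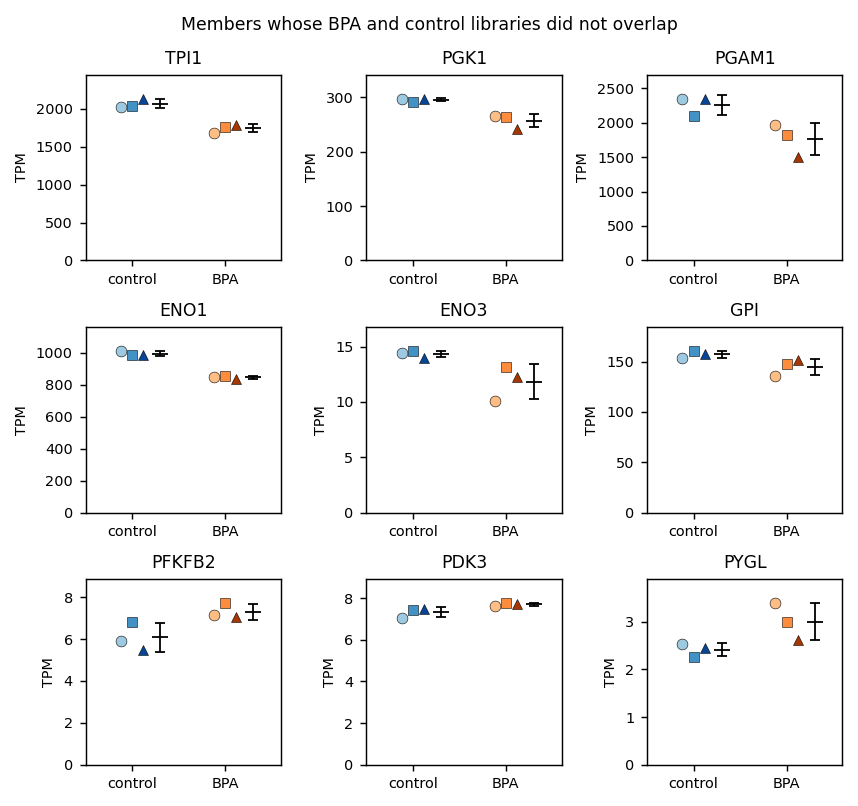
TPM (vertical axes, linear, from 0) of the 9 members whose groups did not overlap, with 1 point per library and a bar for the mean ± SD of 3 libraries. TPI1, PGK1, PGAM1, ENO1, ENO3 and GPI are lower with BPA, and PFKFB2, PDK3 and PYGL are higher.

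Other enzymes of the same stretch did not separate by group. Glyceraldehyde-3-phosphate dehydrogenase (GAPDH), often used as a reference gene, was at 978, 1129.5 and 1039 TPM in control and 845, 959.8 and 1179 TPM with BPA. Aldolase A (ALDOA), which cleaves fructose 1,6-bisphosphate, was at 1517, 1775 and 1607 TPM in control and 1316, 1501 and 1814 TPM with BPA. In both genes BPA replicate 1 was the lowest library and BPA replicate 3 the highest, with control replicate 2 next, so the groups overlapped fully. Pyruvate kinase M (PKM), which makes pyruvate, had 49.7, 63.8 and 52.9 TPM in control and 44.2, 54.2 and 76.7 TPM with BPA, again with BPA replicate 1 lowest and BPA replicate 3 and control replicate 2 highest. On the per-length TPM scale this was far below ENO1, the enzyme just upstream. How reads shared by near-identical copies were counted is not given, and several of these genes, GAPDH among them, are known to have processed copies in mammalian genomes, so levels compared between genes are uncertain. The aldolase C gene (ALDOC) ran from 64.0 to 76.8 TPM in control and 63.5 to 81.1 TPM with BPA, and bisphosphoglycerate mutase (BPGM) from 10.8 to 11.5 and 7.84 to 11.9 TPM.

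Ratios of ENO1 and TPI1 to GAPDH inside each library, which do not depend on the library's total, did not separate the groups. The log2 ratio of TPI1 to GAPDH averaged 0.98 ± 0.11 in control and 0.82 ± 0.20 with BPA (SD, n = 3, exact two-sided permutation p = 0.3). That of ENO1 to GAPDH averaged -0.076 ± 0.12 and -0.22 ± 0.26 (exact p = 0.5). BPA replicate 3 had the lowest value of both ratios. With 3 against 3 libraries the smallest p this test allows is 0.1. A total of 8 such ratios were computed, and each had an adjusted p of at least 0.8 over the 8.

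The ratio that separated the groups in the deposited values was that of the lactate dehydrogenase subunits. LDHA, which favours the making of lactate from pyruvate, stood at 2118, 1740.2 and 1968 TPM in control and 1872, 1633 and 1204 TPM with BPA. The groups overlapped, since BPA replicate 1 exceeded control replicate 2, with a log2 difference of -0.33 (SE 0.19, 95% interval -0.78 to 0.13). Without BPA replicate 3 the log2 difference of LDHA was -0.15, and without BPA replicate 1 it was -0.47. LDHB, typical of tissues that use lactate, stood at 27.4, 23.7 and 24.2 TPM in control and 29.7, 29.0 and 20.05 TPM with BPA, with BPA replicates 1 and 2 the highest libraries and BPA replicate 3 the lowest. Both genes were lowest in BPA replicate 3, where their ratio lay between those of the other BPA libraries. LDHB made up 1.28, 1.34 and 1.22% of the summed LDHA and LDHB level in control and 1.56, 1.74 and 1.64% with BPA. All BPA libraries were above all control libraries, at 1.65 ± 0.0925% against 1.28 ± 0.0624% (SD, n = 3), though LDHA stayed the bulk in each. The log2 ratio of LDHA to LDHB differed by -0.37 (exact permutation p = 0.1, the smallest possible, adjusted p = 0.8 over 8 ratios), and by -0.41 to -0.33 when any 1 library was left out. Under quantile normalization it differed by -0.18, the groups were no longer apart and the exact permutation p was 0.2.

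**Figure D4:**
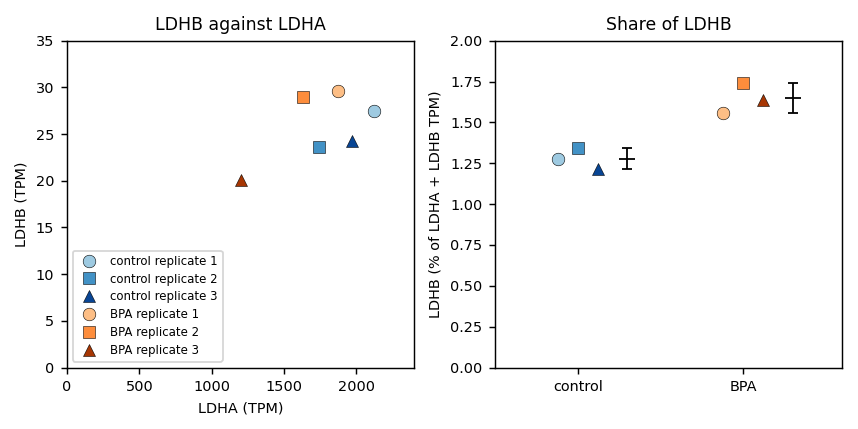
On the left, LDHB against LDHA in TPM for each library (linear axes from 0), and on the right the share of LDHB in their sum, with bars for the mean ± SD of 3 libraries. The LDHB share is 1.22% to 1.34% in control and 1.56% to 1.74% with BPA.

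Of 10 enzyme or transport steps with more than 1 isoform among the members, the isoform shares were apart between groups in 2, lactate dehydrogenase and aldolase. For comparison, 9.37% of all tested genes were apart in either direction. The shares were added later and so few steps do not show an excess. ALDOC, the brain-type aldolase, took 4.17, 4.15 and 3.83% of the aldolase level in control and 4.60, 4.26 and 4.28% with BPA. This was a small shift, of 4.05 ± 0.191% against 4.38 ± 0.193%, and the aldolase share was not among the ratios chosen for testing. In the other 8 steps the shares overlapped.

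Glucose carriers and hexokinases did not separate by group. SLC2A1 (GLUT1, the basal carrier of most cells), the more abundant of the glucose carriers in the set, was at 17.9, 29.7 and 23.5 TPM in control and 13.3, 19.8 and 43.5 TPM with BPA. Outside the set SLC2A10 was at similar levels, 17.97 to 24.7 TPM in control and 15.4 to 37.2 TPM with BPA. For SLC2A1, BPA held both the lowest library, replicate 1, and the highest, replicate 3. SLC2A3 (GLUT3, a high-affinity carrier) was steady in all libraries, at 4.94 to 5.66 TPM in control and 5.23 to 5.30 TPM with BPA. The insulin-regulated carrier SLC2A4 (GLUT4) was too low on average to be tested, at 0.286, 0.348 and 0.345 TPM in control and 0.0633, 0.799 and 0.719 TPM with BPA. Its levels were low in every library, with BPA replicate 1 the lowest and the other BPA libraries the highest.

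Hexokinases trap glucose as glucose 6-phosphate. HK1, the widespread form, was at 11.1, 14.2 and 12.1 TPM in control and 10.2, 12.3 and 19.7 TPM with BPA, and HK2, the insulin-responsive form, at 1.93, 2.70 and 2.18 TPM in control and 1.55, 2.07 and 4.19 TPM with BPA. In both the BPA libraries spanned the control libraries. Their ratio hardly varied, at a log2 of -2.04 ± 0.0040 in control and -2.08 ± 0.073 with BPA (SD, n = 3, exact permutation p = 0.4). Glucose-6-phosphate isomerase (GPI), the next enzyme, was at 154, 161 and 158 TPM in control and 136, 147 and 152 TPM with BPA. All BPA libraries were below control by a small margin. The log2 difference was -0.12 (SE 0.081, 95% interval -0.32 to 0.080), with an unadjusted limma p of 0.193. It was -0.073 without BPA replicate 1 and -0.20 under median centring.

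Phosphofructokinase commits sugar to glycolysis, and the PFKFB enzymes set the level of fructose 2,6-bisphosphate, its activator. The platelet-type subunit PFKP was the most abundant, at 46.97, 67.1 and 54.8 TPM in control and 35.9, 52.4 and 91.7 TPM with BPA. Its BPA libraries spanned the control libraries, and the interval of the difference was wide, with a log2 difference of 0.00069 (SE 0.35, 95% interval -0.86 to 0.86). Its direction was not fixed: without BPA replicate 3 the log2 difference was -0.35, without BPA replicate 1 it was 0.31, and under each of the 4 other scalings it lay just below 0. The liver-type PFKL ran from 21.3 to 35.3 TPM in control and 16.4 to 52.9 TPM with BPA, and the muscle-type PFKM from 4.50 to 5.91 and 4.66 to 8.94 TPM. Of the 6 genes of this step 6 had a positive log2 difference, but 4 did under median centring or quantile normalization and 3 without BPA replicate 3.

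PFKFB2, a form known as a target of insulin signalling, was at 5.91, 6.83 and 5.50 TPM in control and 7.13, 7.72 and 7.05 TPM with BPA. All BPA libraries were above control, though control replicate 2 came close to BPA replicate 3. The log2 difference was 0.23 (SE 0.11, 95% interval -0.032 to 0.50), with an unadjusted limma p of 0.0751. PFKFB3, the strongly kinase-biased and hypoxia-inducible form, overlapped at 5.76, 11.4 and 8.13 TPM in control and 5.21, 8.37 and 21.8 TPM with BPA, and PFKFB4 at 2.82, 3.81 and 3.10 TPM in control and 3.35, 4.37 and 6.41 TPM with BPA. BPA replicate 3 was the highest library in both. The log2 difference of PFKFB2 was 0.15 under median centring or quantile normalization and 0.37 with array weights. PFKFB2 passed with array weights (adjusted p = 0.0301 by limma), in a range over alternatives up to 0.9999.

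Lactate leaves cells by monocarboxylate transporters. SLC16A3 (MCT4, the exporter typical of glycolytic cells) was at 63.2, 77.7 and 75.2 TPM in control and 42.8, 56.4 and 84.5 TPM with BPA. BPA replicates 1 and 2 were below all control libraries and BPA replicate 3 above them, so the groups overlapped, with a log2 difference of -0.28 (SE 0.25, 95% interval -0.91 to 0.35). Without BPA replicate 3 the log2 difference was -0.54, and without BPA replicate 1 it was -0.054. SLC16A1 (MCT1) ran from 15.2 to 17.1 TPM in control and 13.4 to 15.4 TPM with BPA.

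Pyruvate dehydrogenase feeds pyruvate into the mitochondria, and the PDK kinases restrain it. PDHA1, its catalytic subunit, ran from 5.86 to 5.97 TPM in control and 5.46 to 7.94 TPM with BPA. PDK2 was at 11.8, 23.1 and 15.9 TPM in control and 12.3, 21.7 and 45.1 TPM with BPA, with BPA replicate 3 by far the highest. PDK3 was at 7.04, 7.44 and 7.49 TPM in control and 7.62, 7.76 and 7.74 TPM with BPA. Its BPA libraries all lay just above control, with a log2 difference of 0.065 (SE 0.083, 95% interval -0.14 to 0.27), and the sign turned under median centring, to -0.019, and quantile normalization, to -0.026. PDK4, the kinase linked to fasting and fat oxidation and no member of the set, was at 153, 167 and 128 TPM in control and 210.0, 196 and 215 TPM with BPA (log2 difference 0.47, SE 0.12, Benjamini-Hochberg adjusted p of 0.901 by limma). All its BPA libraries were above control.

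Of the 7 glycogen genes 4 lay above control and 3 below. The split depended on the libraries: 5 lay above, 3 of them apart, without BPA replicate 3 (14.7% of all tested genes were higher without overlap), and 3 lay above without BPA replicate 1. With array weights 6 lay above, and 7 did, 3 of them apart, without both BPA replicate 3 and control replicate 2 (against 23.1%). Glycogen synthase 1 (GYS1), the most abundant of them by mean TPM over all libraries, though below PYGB in the control mean and in BPA replicates 1 and 2, was at 19.7, 36.7 and 24.5 TPM in control and 18.5, 29.3 and 76.2 TPM with BPA. BPA replicate 3 was far above the rest and the other BPA libraries lay inside or below the control range, with a log2 difference of 0.40 (SE 0.53, 95% interval -0.91 to 1.71). Without BPA replicate 3 the log2 difference was -0.16, and without BPA replicate 1 it was 0.84. The liver-type glycogen phosphorylase PYGL, which releases glucose 1-phosphate, was at 2.53, 2.26 and 2.45 TPM in control and 3.39, 2.999 and 2.62 TPM with BPA. All BPA libraries were above control. The log2 difference was 0.22 (SE 0.11, 95% interval -0.035 to 0.49), with an unadjusted limma p of 0.0787. The PYGL difference was 0.14 under median centring and 0.11 at a pseudocount of 5. With array weights its adjusted p was 0.0486 by limma, in a range over alternatives up to 0.9999.

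The brain-type phosphorylase PYGB, the main form here, overlapped at 22.9, 33.6 and 26.4 TPM in control and 22.7, 32.0 and 53.0 TPM with BPA and was highest in BPA replicate 3. UGP2, which makes UDP-glucose for glycogen, was at 28.1, 26.7 and 25.8 TPM in control and 34.3, 30.6 and 23.3 TPM with BPA, with BPA replicates 1 and 2 the highest and BPA replicate 3 the lowest. Phosphoglucomutases PGM1 (19.3 to 20.1 and 18.5 to 20.6 TPM) and PGM2 (23.4 to 25.4 and 18.8 to 26.7 TPM) and the branching enzyme GBE1 (6.81 to 7.32 and 5.50 to 8.15 TPM) overlapped between groups.

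Some members shared with the first component which libraries were highest. In 14 of the 36 genes (38.9%) BPA replicate 3 was the highest library and control replicate 2 the second highest, where 25.0% of all tested genes had those top libraries. They were SLC2A1, SLC16A3, HK1, HK2, PFKL, PFKP, PFKFB3, ALDOA, ALDOC, GAPDH, PKM, PDK2, GYS1 and PYGB, picked out here by their values. Among them the level in BPA replicate 3 was from 1.28 (ALDOC) to 4.18 times (PFKFB3) that in BPA replicate 1. In 12 others BPA replicate 3 was the lowest library (33.3%, against 42.4% of all tested genes), and these included LDHA, LDHB, PGAM1 and PGK1. TPI1 and ENO1 differed little between the BPA libraries. Which property of the libraries this axis follows was not tested.

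A further list of 52 genes of the same pathways, of which 34 were tested, gave 12 below and 22 above control, with 0 called by limma and 1 in each direction at an unadjusted p under 0.05. The groups did not overlap for 3 lower genes (8.82%, against 3.98% of all tested genes) and 2 higher ones, 1 of which was PDK4. Of all tested genes 5.38% were higher without overlap. Without BPA replicate 1 there were 6 lower and 4 higher genes, against 14.3% and 14.7% of all tested genes. The higher genes numbered 8 without BPA replicate 3 (against 14.7%) and 6 without control replicate 2 (against 13.2%). With all libraries, the lower genes all act on glycogen. PPP1R3B, a subunit that directs a phosphatase to glycogen, was at 83.4, 84.4 and 86.5 TPM in control and 77.0, 71.3 and 74.5 TPM with BPA, and its relative PPP1R3C at 26.8, 26.3 and 26.8 TPM in control and 25.4, 21.7 and 17.1 TPM with BPA. Their log2 differences were -0.19 (SE 0.075) and -0.32 (SE 0.15), and that of PPP1R3C was -0.18 without BPA replicate 3. STBD1, a glycogen-binding protein, was lower by a small margin (64.9 to 68.6 and 54.8 to 64.2 TPM), its log2 difference moving from -0.13 to -0.050 without BPA replicate 1. PHKA1, a subunit of phosphorylase kinase, was higher (3.05 to 3.23 and 3.39 to 3.71 TPM), its log2 difference moving from 0.14 to 0.056 under median centring. Each had an adjusted p of 0.901 by limma, and with array weights PPP1R3B (0.0233), PPP1R3C (0.0347) and PDK4 (0.0284) passed.

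Genes known to respond to low oxygen are given beside the members because several glycolytic genes share that response. The list also holds the genes of the HIF factors themselves, HIF1A, EPAS1 and ARNT. Of the 17 listed genes 12 lay below control, and 5 did so without overlap (29.4%, against 3.98% of all tested genes). The 5 included HIF1A. Under median centring or quantile normalization 2 did, against 4.14% and 3.94% of all tested genes. Carbonic anhydrase 9 (CA9) was at 11.3, 12.2 and 10.8 TPM in control and 4.74, 5.69 and 7.02 TPM with BPA, and the mitophagy receptor BNIP3 at 628, 628 and 695 TPM in control and 488, 484 and 446 TPM with BPA. The prolyl hydroxylase EGLN3, which marks HIF for decay, was at 16.1, 15.0 and 17.0 TPM in control and 14.1, 12.2 and 12.2 TPM with BPA, and the collagen hydroxylase P4HA1 at 109, 100.1 and 105 TPM in control and 97.8, 89.1 and 72.4 TPM with BPA. These BPA libraries were all below control, though the log2 difference of P4HA1 moved from -0.29 to -0.16 without BPA replicate 3. HIF1A itself was also lower (3.86 to 4.62 and 3.35 to 3.81 TPM) and its partner ARNT higher (12.9 to 13.5 and 13.8 to 14.4 TPM), both at modest levels. The HIF1A difference moved from -0.18 to -0.11 without control replicate 3, and that of ARNT from 0.093 to 0.0084 under median centring and 0.0081 under quantile normalization. Each of the 6 had an adjusted p of 0.901 by limma. With array weights CA9 (adjusted p = 0.00789), BNIP3, EGLN3 and P4HA1 passed, and CA9 also with the first component as a covariate (adjusted p = 0.0283 by limma), a setting chosen after seeing the data. The other genes of the list overlapped between groups. Of these, EGLN1, NDRG1, EPAS1 and ADM had log2 differences of 0.25, 0.17, 0.13 and 0.00079. Those of ANKRD37, VEGFA, BNIP3L and INSIG2 were -0.25, -0.23, -0.19 and -0.14. Those of P4HA2, MXI1 and KDM3A were -0.086, -0.021 and -0.016. The part of oxygen in the glycolytic levels was not tested.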

How the data were processed

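The authors deposited 1 table of log2 values per gene and library, named as normalized log TPM. Per the labels' protocols, RNA was column-purified and made into stranded mRNA libraries. The aligner, its build and the counting tool were not given in the sources used here. Raising 2 to each value and subtracting 1 gave 1000000 per library, so values were read as log2(TPM + 1), pseudocount 1. TPM keeps no depth.

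Genes with a mean of at least 1 (12277) were compared by limma 3.58.1 in R 4.3.3 (trended empirical Bayes, two-sided, no covariate, Benjamini-Hochberg over all of them, threshold 0.05). The fit was checked on simulated data with larger changes than any member showed and with noise drawn separately for each gene. That check therefore does not cover changes as small as these or an axis shared by many genes. Intervals are from limma's moderated error. Members and lists were chosen with earlier results of these data known. Tests are given for members whose groups do not overlap, those with an unadjusted p under 0.05 and the most abundant of each role. Of the further pathway and hypoxia genes, those without overlap are named (at most 6 per list), with PDK4 and SLC2A4 always. The sums and shares of levels were added later, as was the first component as a covariate. The fixed ratio of PDK1 to PDHA1 was not computed.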

Additional observations from a re-analysis of the deposited data

How the results depend on the processing

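Depth is unknown, so counting error cannot be separated from the spread between 3 libraries a group, and calls rest on how that spread is modelled. Over all genes 0 were called by limma (439 at an unadjusted p under 0.05), against 6 without filter, 881 with array weights, 4 with the first component as a covariate, 4 without BPA replicate 3 and control replicate 2, and 0 to 1 when any 1 library was left out. Of the members 0 were called, against 8 with array weights, estimated gene by gene because the default fit did not converge. Those weights made the fit rest mostly on control replicate 3 and BPA replicate 2. At an unadjusted p under 0.05, 4 members were lower, against 9 with array weights, 16 with the first component and 0 to 6 with 1 library left out, and 0 were higher, against 6, 5 and 0 to 2, and 1 without BPA replicate 3 and control replicate 2. Array weights put 10.3% of all tested genes lower and 20.1% higher at that p, and the first component 6.97% and 8.86%, so the members' 6 higher (of 36) with array weights are no excess. With 1 library left out, 0.731% to 3.4% of all tested genes were lower and 0.634% to 4.32% higher. Without BPA replicate 3 and control replicate 2 these shares were 2.39% and 3.62%. The alternatives of scaling, pseudocount and filter put the count of lower members without overlap at 6 to 9 (6 as reported), against 3.84% to 4.59% of all tested genes. Leaving out 1 library gave 6 to 10, against 4.99% to 14.3%. Leaving out BPA replicate 3 with control replicate 2 gave 11, against 11.7%. The 3 higher members without overlap became 1 under the stricter filter (against 5.21%), 0 under median centring (2.95%) and 0 under quantile normalization (3.49%). They became 3 to 6 with 1 library left out, against 6.54% to 14.7%, and 8 (of 36) without both libraries, against 23.1%. Leaving out a library can only keep or raise such counts of members.

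The median over members was -0.077 under median centring and -0.14 to 0.070 with 1 library left out. The summed chain lay lower by 19.1% under median centring, 9.23% under quantile normalization and 13.8% to 14.9% with 1 library left out. PFKP turned to -0.00073 at a pseudocount of 0.1, -0.083 under median centring, -0.049 under quantile normalization, -0.0037 without the 20 most abundant genes, -0.015 under median-ratio scaling, -0.058 with array weights, -0.29 with the first component, -0.22 without both libraries, and -0.35 to 0.31 with 1 left out. PDK3 turned to -0.019 and -0.026 under median centring and quantile normalization. GYS1 turned to -0.055 with the first component and ran from -0.16 to 0.84 with 1 library left out. With 1 left out the ratio difference of GYS1 to PYGL ran from -0.45 to 0.68, SLC2A1 to SLC2A3 from -0.51 to 0.31, SLC16A3 to SLC16A1 from -0.44 to 0.13 and PFKFB3 to PFKFB4 from -0.46 to 0.094. The causes were not tested.

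With the replicate number as a block, 0 members were lower at an unadjusted p under 0.05, where 1.08% of all tested genes were. So few expected members make this 0 no result about the members. By adjusted p, 0 members and 0 of all tested genes passed. Deviations of same-numbered libraries from their group means correlated at 0.72, -0.44 and -0.23 across genes, so the numbers were not taken as pairs, and not every library correlated best with its own number.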

Other observations

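Some further genes of the pathway, named after their values were seen, bear on pyruvate use and glycogen breakdown. Ranges are given for control and then BPA. Basigin (BSG), the chaperone that brings lactate transporters to the cell surface, was abundant and overlapped between groups, at 532, 806 and 609.6 TPM in control and 466, 711 and 1102 TPM with BPA. The mitochondrial pyruvate carrier genes MPC1 (7.54 to 7.93 and 5.91 to 9.37 TPM) and MPC2 (11.7 to 12.7 and 8.89 to 13.9 TPM) also overlapped. So did the pyruvate dehydrogenase core genes DLAT (15.3 to 18.4 and 16.9 to 19.3 TPM) and DLD (32.1 to 33.7 and 33.0 to 40.2 TPM). The phosphatase PDP1, which counters the PDK kinases, was abundant and even, at 433 to 449.9 TPM in control and 408 to 447 TPM with BPA. Acid alpha-glucosidase (GAA), which breaks down glycogen in lysosomes, had the widest range, as highest over lowest library, among the glycogen genes outside the set that were tested, at 10.2, 33.0 and 17.7 TPM in control and 10.9, 24.8 and 81.8 TPM with BPA.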
